A study of Mus musculus with 23 samples.

Results

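Followed across the tumors of this study were 10 genes of the melanosome: the melanin synthesis enzymes Tyr, Tyrp1 and Dct, the melanosome proteins Pmel, Mlana and Gpnmb, the transporters Slc45a2, Oca2 and Slc24a5, and the receptor Gpr143. They were taken by gene symbol, with no threshold on a measured value, and they are 10 of the 56748 genes in the count table. Each symbol stood on a single row, and 9 of the 10 had enough counts to be tested.

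Melanin is made inside melanosomes, organelles related to lysosomes that pigment cells build on amyloid fibrils of the protein encoded by Pmel. Tyrosinase carries out the first and limiting reactions from tyrosine, while the products of Dct and Tyrp1 act on later intermediates of the pathway to brown and black eumelanin. The transcription factor MITF, which binds DNA as a dimer of basic helix-loop-helix proteins, drives many of these genes in melanocytes and in melanoma cells.

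RNA was sequenced from 23 tumors that had grown under the skin of DBA/2J mice, 6 to 8 weeks old at the start, from implanted cells of B16-F1, a mouse melanoma line that came from a C57BL/6 animal. Mice were treated either by the intraperitoneal route (IP) or by injection into the tumor (IT). CONTROL_IP received saline and CONTROL_IT received DMSO, PTX stands for pentoxifylline at 60 mg/kg, NCTD for norcantharidin at 3 mg/kg, and MIX for both drugs at these doses. The IP groups held 2 tumors each, PTX_IT held 3, and CONTROL_IT, NCTD_IT and MIX_IT held 4 each. In the labels the IP and the IT tumors carry different batch names, so route, vehicle and batch cannot be told apart. DBA/2J mice carry mutations of Tyrp1 and Gpnmb that impair their own melanosomes, and the counts do not separate reads of the host from reads of the implanted cells.

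The libraries held 2861578 to 6702374 counted reads each. Levels are given in CPM, the counts of a gene relative to the library size as scaled by the TMM method, with the SD between tumors. The libraries read the 3′ end of messenger RNA, so the count of a gene does not grow with its length, and levels are compared between tumors rather than between genes. All 10 genes of a list of other melanocyte lineage genes were detected in every group, with a summed level between 2232 and 3351 CPM per tumor. Xist, the X-linked RNA of female cells, reached 5.19 to 13.6 CPM in NCTD_IT and 1.28 to 11.6 CPM in PTX_IT. It was at most 0.566 CPM in CONTROL_IT and 0 in MIX_IT. Host sex and treatment thus cannot be told apart where NCTD_IT or PTX_IT is set against CONTROL_IT or MIX_IT. Among the IP tumors Xist was 8.26 CPM in CONTROL_IP replicate 2, and 0 in CONTROL_IP replicate 1 and in every treated tumor. The IP controls thus differed from each other in this marker, although the paper describes the groups as sex-matched.

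Together, the 10 genes held between 1.70% and 4.05% of all counted reads of a tumor, with a median of 3.01%. More reads were counted on Dct than on any other gene of the table (rank 1 by summed count), and Pmel (rank 5), Tyrp1 (rank 16), Mlana (rank 25) and Gpnmb (rank 27) were also near the top. Slc45a2 (rank 139) and Tyr (rank 208) followed, ahead of Oca2 (rank 2375) and Gpr143 (rank 5348). Slc24a5, a cation exchanger of the melanosome, was close to the limit of detection, with 1 to 13 counts per tumor against a floor of 3 counts, and did not pass the filter on low counts. Pigment gene reads thus made up a sizeable part of each library, most of it from 5 genes.

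By group, the share of reads was 3.09% ± 0.219 (SD, n = 4) in CONTROL_IT, 2.90% ± 0.360 (n = 3) in PTX_IT, 2.41% ± 0.343 (n = 4) in NCTD_IT and 2.59% ± 0.625 (n = 4) in MIX_IT. All tumors of NCTD_IT (2.14% to 2.85%) lay below all tumors of CONTROL_IT (2.87% to 3.31%), while the range of MIX_IT reached from 1.70% to 3.14%. In the IP groups of 2 tumors the share was 3.51% ± 0.293 in CONTROL_IP, 3.58% ± 0.659 in PTX_IP, 3.15% ± 0.0153 in NCTD_IP and 3.12% ± 0.147 in MIX_IP. In whole tumors, a smaller share of pigment cells and less pigment RNA per cell cannot be told apart.

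**Figure D1:**
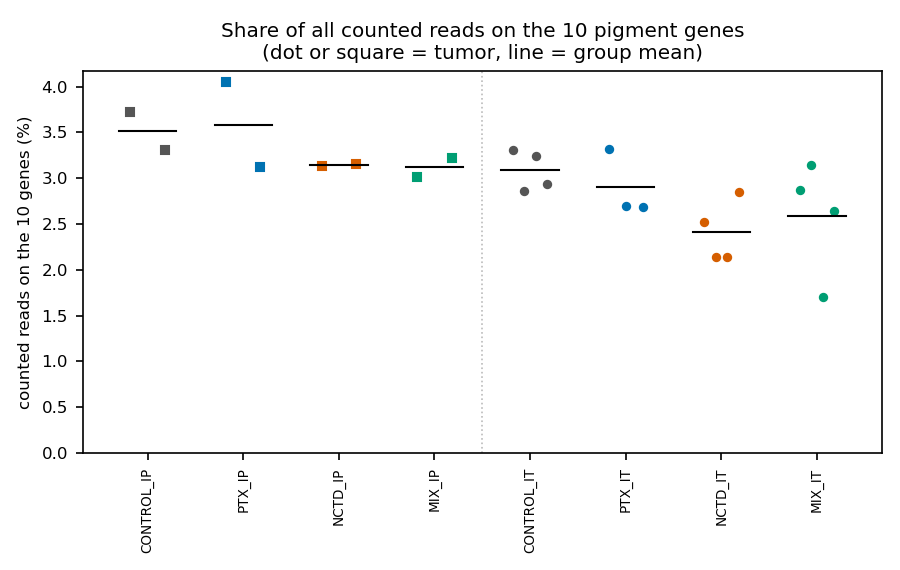
Share of all counted reads (%, vertical axis) on the 10 pigment genes in each of the 23 tumors by group, with squares for IP tumors, dots for IT tumors and lines for group means. The NCTD_IT tumors, from 2.14% to 2.85%, sit below the CONTROL_IT tumors, and 1 MIX_IT tumor is lowest of all at 1.70%.

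MITF binds the E-box CATGTG, and the M-box, the same word with AGT before it and CT after it, is known from pigment gene promoters. Both were searched on either strand in the promoters of the 10 genes, from 250 bases before to 50 bases after the start of the canonical transcript (GENCODE vM39, GRCm39). The reason for the search was that Mitf passed the test in NCTD_IT vs. CONTROL_IT, a call kept in only 2 of 8 fits that left out a tumor. CATGTG was present in 5 of 10 pigment promoters, against 12.0% of 21770 promoters of protein-coding genes. The M-box, which contains it, was in 2 of 10 (Tyr and Tyrp1), against 5 of all 21770 promoters (0.0230%), these 2 among them. As the M-box was already known from pigment gene promoters, this match is a description and not a test. CACGTG, the palindromic E-box, was found in 0 of 10, against 7.81% of all promoters. A match describes letters in a window of this length and says nothing of binding. The stretches of 60 bases before the start that hold the match are shown on the strand of the gene, with CATGTG or its reverse complement CACATG in capitals.
Tyr, chr7:87142721-87142780, minus strand: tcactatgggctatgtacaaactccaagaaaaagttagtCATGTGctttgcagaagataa
Tyrp1, chr4:80752377-80752436, plus strand: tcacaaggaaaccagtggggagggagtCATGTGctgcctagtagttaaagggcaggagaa
Dct, chr14:118289776-118289835, minus strand: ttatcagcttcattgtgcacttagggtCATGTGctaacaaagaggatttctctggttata
Mlana, chr19:29674974-29675033, plus strand: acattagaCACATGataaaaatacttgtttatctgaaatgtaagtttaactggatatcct
Gpr143, chrX:151564620-151564679, plus strand: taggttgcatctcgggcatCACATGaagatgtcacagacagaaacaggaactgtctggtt
The match lay close to the start in Tyr (position -21) and Tyrp1 (position -38) and farther upstream in Dct (-211), Gpr143 (-231) and Mlana (-242). The stretch of Dct shares with those of Tyr and Tyrp1 the letters around the E-box but not the whole M-box. Pmel, Slc45a2, Oca2, Slc24a5 and Gpnmb held no CATGTG in this window, and other start sites were not searched. The Pmel window (128541871 to 128542170) lay inside the span of the gene, which begins at 128540064. For Oca2 the window shared no stretch of 40 bases with the RefSeq promoter.

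Tyr (ENSMUSG00000004651, chromosome 7, 87073979 to 87142720) encodes tyrosinase. In CONTROL_IT its levels were 699, 735, 756 and 758 CPM, and in NCTD_IT they were 959.9, 842, 638 and 892 CPM. In NCTD_IT 3 tumors lay above all controls and the other below them, so the groups overlapped. PTX_IT stood at 947, 786 and 746 CPM, and MIX_IT at 1084, 776, 685 and 682 CPM, again overlapping the controls. The log2 fold change vs. CONTROL_IT was 0.18 ± 0.18 (SE) in NCTD_IT, 0.16 ± 0.19 in PTX_IT and 0.13 ± 0.18 in MIX_IT, with adjusted p-values of 0.591, 0.898 and 0.802. Its CONTROL_IP tumors were at 638 and 572 CPM, and the widest pair among the IP groups was MIX_IP at 421 and 691 CPM.

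Tyrp1 (ENSMUSG00000005994, chromosome 4, 80752360 to 80769956) encodes tyrosinase-related protein 1, an enzyme and stabilizer of the eumelanin pathway and one of the genes mutated in the host strain. The CONTROL_IT tumors were at 3128, 3459, 3532 and 3365 CPM, and the NCTD_IT tumors at 2382, 2359, 2229 and 3415 CPM. In NCTD_IT 3 tumors were below every control, and the other was inside the control range. The log2 fold change of -0.38 ± 0.20 (95% confidence interval -0.79 to 0.03, adjusted p = 0.271) did not pass the test, and without the high tumor it was -0.53 (adjusted p = 0.150). In PTX_IT (3797, 2459.5 and 3483 CPM) and MIX_IT (3317, 3722, 2163 and 3418 CPM) a single low tumor in each group lay below the controls.

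Dct (ENSMUSG00000022129, chromosome 14, 118250202 to 118289656) encodes dopachrome tautomerase, which sets the carboxylated branch of eumelanin synthesis. Its CONTROL_IT tumors were at 18097, 12403, 14203 and 12857 CPM, and its NCTD_IT tumors at 10986, 10153, 9295 and 11512 CPM. All NCTD_IT tumors were below all controls, with a log2 fold change of -0.46 ± 0.19 (95% confidence interval -0.85 to -0.06, adjusted p = 0.166). MIX_IT tumors were at 12028, 13368, 7368 and 11104 CPM. Only the tumor at 13368 CPM was inside the control range, and the others were below every control. The log2 fold change in MIX_IT was -0.39 ± 0.18 (adjusted p = 0.379), and -0.25 without the tumor at 7368 CPM. PTX_IT tumors were at 14304, 11419 and 13107 CPM, with a log2 fold change of -0.15 ± 0.20 (adjusted p = 0.910). By the IP route, both NCTD_IP tumors (13479 and 13690.1 CPM) and both MIX_IP tumors (12695 and 14002 CPM) were below both CONTROL_IP tumors (16600.3 and 14885 CPM), and the log2 fold changes were -0.21 ± 0.19 and -0.23 ± 0.19 (adjusted p = 0.999 for both).

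Gpnmb (ENSMUSG00000029816, chromosome 6, 49013480 to 49047863) encodes a transmembrane glycoprotein of melanosomes and lysosomes that macrophages also make, and it too is mutated in the host strain. CONTROL_IT tumors had 2164, 2585, 2727 and 2565 CPM, and NCTD_IT tumors 1940.1, 1632, 1642 and 1895 CPM. The groups did not overlap, and NCTD_IT was also below PTX_IT, whose tumors were at 2317, 2268 and 2265 CPM (2.13% of all genes separated these treatments in that direction). The difference from CONTROL_IT on the log2 scale was -0.50 ± 0.17 (95% confidence interval -0.87 to -0.13), the smallest p of the pigment genes in any comparison (0.0112), and the adjusted p was 0.118. It did pass the threshold in DESeq2 on the 2 groups (log2 fold change -0.49, adjusted p = 0.0162), where 1380 genes were called. MIX_IT tumors stood at 2751, 2936, 1578 and 2536 CPM, 3 of them within or above the control range and 1 below every NCTD_IT tumor.
The summed level of 14 macrophage markers was 236 to 1196 CPM in CONTROL_IT and 639 to 1877 CPM in NCTD_IT, with Cd163 at 0 in CONTROL_IT. Over the 15 IT tumors Pearson's r of the log2 levels of Gpnmb and this sum was -0.095 (permutation p = 0.733, adjusted over 27 relations p = 0.761). Among the 8 IP tumors r was 0.42. The part of macrophages in the difference of Gpnmb between the groups was not tested.

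Slc45a2 (ENSMUSG00000022243, chromosome 15, 11000807 to 11029319) encodes a transporter that keeps the melanosome at the pH tyrosinase needs. CONTROL_IT tumors were at 1162, 1054, 1180.5 and 1083 CPM and NCTD_IT tumors at 909, 803, 822 and 917 CPM. All NCTD_IT tumors were lower, with a log2 fold change of -0.38 ± 0.16 (95% confidence interval -0.71 to -0.04, adjusted p = 0.181). MIX_IT tumors were at 1151, 1076, 704 and 1058 CPM, and the tumor at 704 CPM, also lowest in Dct and Gpnmb, was the only one of them outside the control range.

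Pmel (ENSMUSG00000025359, chromosome 10, 128540064 to 128556107) supplies the fibrils on which melanin is laid down, and Mlana (ENSMUSG00000024806, chromosome 19, 29675224 to 29686034) encodes MART-1, a melanosome protein that assists its processing. Pmel was at 6568 ± 461 CPM (SD, n = 4) in CONTROL_IT, 6166 ± 1690.2 (n = 3) in PTX_IT, 5297 ± 1603 (n = 4) in NCTD_IT and 5447 ± 1919 (n = 4) in MIX_IT. The treated groups were more spread than the controls, from 3707 to 7428 CPM in NCTD_IT and from 2772 to 7248 CPM in MIX_IT. Mlana was at 2307 ± 215 CPM in CONTROL_IT and 2227 ± 631 in NCTD_IT, a difference of -0.05 ± 0.21 on the log2 scale (adjusted p = 0.905). Among IP tumors, both Mlana values of NCTD_IP (2636 and 2839 CPM) and of MIX_IP (2799.9 and 2706 CPM) were below those of CONTROL_IP (3283 and 2912 CPM), and Pmel did the same in MIX_IP (6097 and 6352 CPM vs. 6926 and 6716 CPM).

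Oca2 (ENSMUSG00000030450, chromosome 7, 55889508 to 56186266), which encodes an anion channel of melanosomes, lay between 36.0 and 119 CPM over all tumors. Gpr143 (ENSMUSG00000025333, chromosome X, 151564917 to 151591642), a receptor on the melanosome membrane that limits organelle size, lay between 13.2 and 41.8 CPM on 45 to 213 counts. The log2 fold changes in NCTD_IT were -0.30 ± 0.34 (adjusted p = 0.641) and -0.50 ± 0.28 (adjusted p = 0.310), with overlapping groups. Slc24a5 (ENSMUSG00000035183, chromosome 2, 124910044 to 124930597) lay between 0.156 and 2.51 CPM, and no fold change is given for it.

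**Figure D2:**
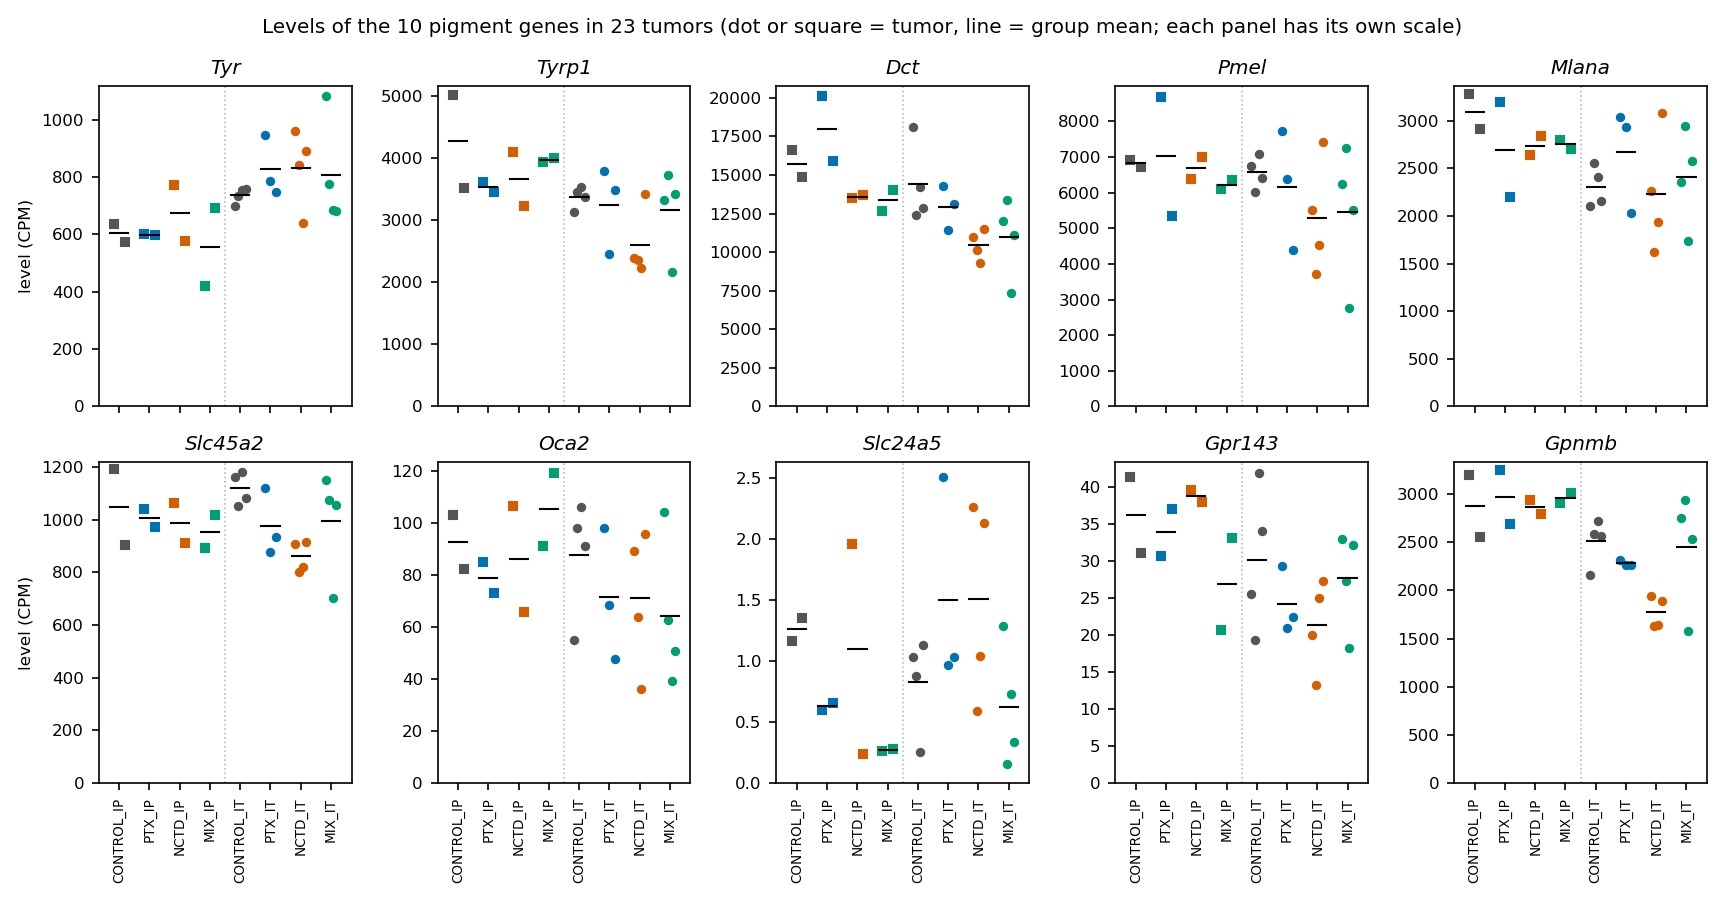
Level of each of the 10 genes (CPM, vertical axes from 0 with a scale of their own) in each tumor by group, with squares for IP tumors, dots for IT tumors and lines for group means. Dct, Slc45a2 and Gpnmb are the genes whose 4 NCTD_IT tumors all lie below the 4 CONTROL_IT tumors, and 1 MIX_IT tumor is low in many panels.

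Whether the drugs, alone or combined, moved the pigment genes was asked within each route against its own vehicle group, with edgeR's quasi-likelihood test fitted across all genes. In NCTD_IT vs. CONTROL_IT, 0 of 9 pigment genes had an adjusted p below 0.05, against 1.37% of 12480 genes tested. At an unadjusted p below 0.05 there were 3 (Gpnmb, Dct and Slc45a2, all lower), while 21.6% of all genes reached that in either direction and 10.0% as lower. Groups that did not overlap, with NCTD_IT lower, were seen for these 3 of 9, against 8.95% of all genes. Lower estimates were found for 8 of 9, Tyr being the exception, against 48.0% of all genes. The median log2 fold change was -0.38 against 0.03 over all genes tested. The pigment genes varied together among tumors, so their signs are not independent of each other. With Xist as a covariate, 0 of 9 passed, and the estimates were -0.29 for Dct, -0.35 for Slc45a2, -0.51 for Gpnmb and, with the sign turned, -0.10 for Tyr. Every NCTD_IT tumor was above every CONTROL_IT tumor in Xist, so this fit cannot separate host sex from treatment.

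PTX_IT vs. CONTROL_IT gave 0 of 9 by the adjusted p (0% of all genes) and 0 at an unadjusted p below 0.05 (6.35% of all genes). MIX_IT vs. CONTROL_IT gave 0 of 9 (0% of all genes), and Dct alone had an unadjusted p below 0.05, against 5.11% of all genes that did so as lower. The medians over the 9 genes were -0.14 and -0.13 on the log2 scale, with 7 of 9 lower in each (48.4% and 48.9% of all genes). No pigment gene separated the groups in these comparisons, where 4.15% and 4.98% of all genes did so as lower. The IT comparisons share their controls, so their estimates are not independent of each other.

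By the IP route, with 2 tumors a group, 0 of 9 genes passed in NCTD_IP, PTX_IP and MIX_IP vs. CONTROL_IP (0% of all genes in each), and 0 had an unadjusted p below 0.05, against 3.59%, 5.30% and 2.94% of all genes. DESeq2 called 0 pigment genes in these comparisons and in PTX_IT and MIX_IT. Groups that did not overlap were found for Dct and Mlana in NCTD_IP and for Dct, Pmel and Mlana in MIX_IP, all lower, while 34.3% and 35.9% of all genes separated those groups in either direction, and for 0 of 9 in PTX_IP (31.8% of all genes). Over the 6 comparisons with controls, the 95% confidence intervals of the pigment genes stretched at most from -1.16 (Oca2 in MIX_IT) to 0.79 (Oca2 in MIX_IP), without allowance for host sex.

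**Figure D3:**
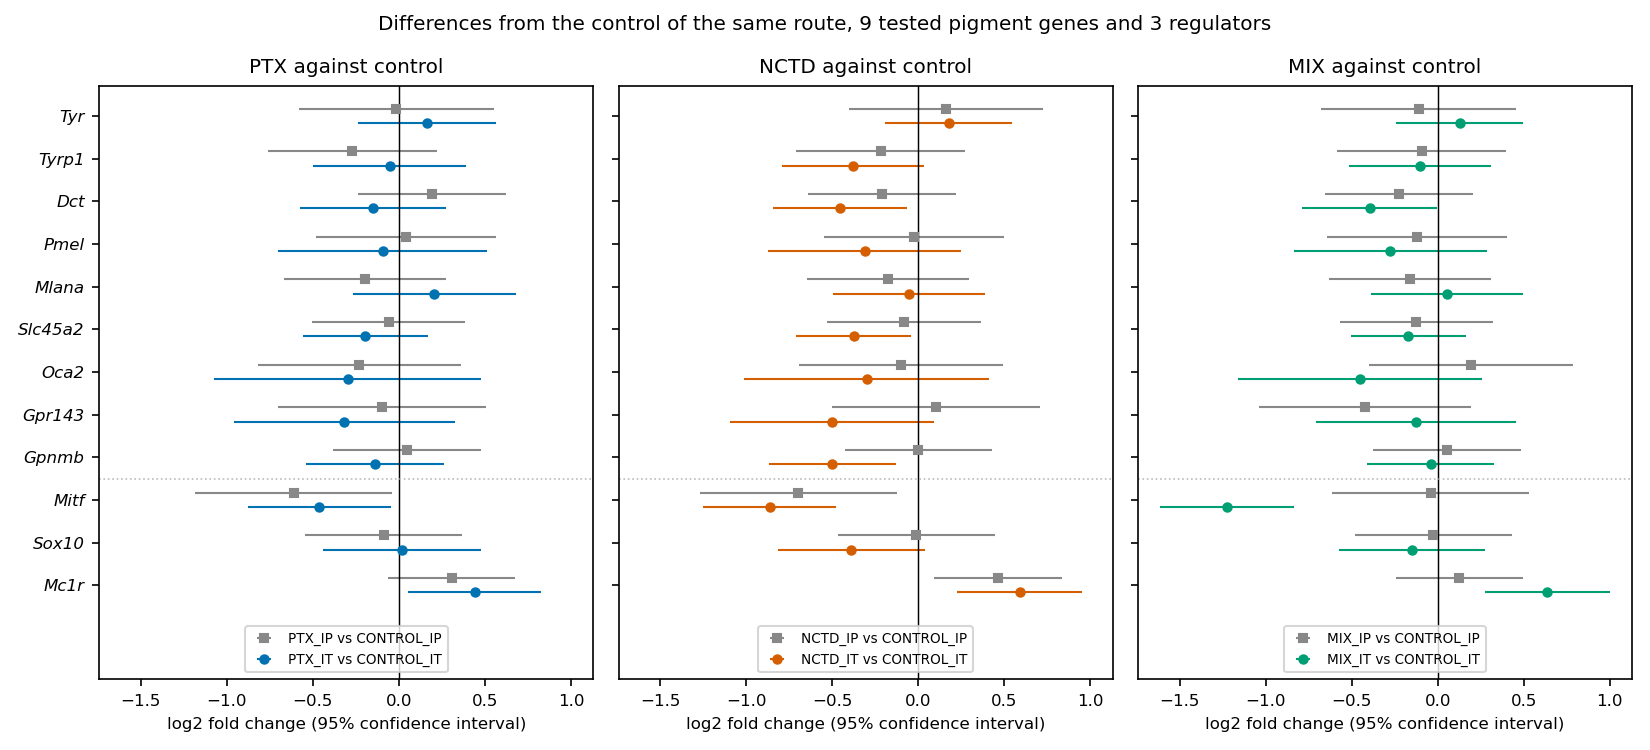
Log2 fold changes with 95% confidence intervals (horizontal axes) of the 9 tested pigment genes, and of Mitf, Sox10 and Mc1r under the dotted line, for PTX, NCTD and MIX against the control of the same route, with grey squares for IP and coloured dots for IT. Among pigment genes the interval stays below 0 for Dct, Slc45a2 and Gpnmb in NCTD_IT and, barely, for Dct in MIX_IT, and that of Mitf in MIX_IT lies farthest to the left.

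The combination was also compared with each drug, and the drugs with each other. Of 9 pigment genes, 0 passed in each of the 3 comparisons by the IT route and the 3 by the IP route, against at most 0.00801% of all genes, which was 1 gene in MIX_IT vs. NCTD_IT. At an unadjusted p below 0.05 stood 1 of 9 in MIX_IT vs. NCTD_IT (6.02% of all genes), and 0 of 9 in NCTD_IT vs. PTX_IT (3.87%), MIX_IT vs. PTX_IT (3.75%), NCTD_IP vs. PTX_IP (2.91%), MIX_IP vs. NCTD_IP (4.27%) and MIX_IP vs. PTX_IP (4.94%). Gpnmb was 0.46 ± 0.17 higher on the log2 scale in MIX_IT than in NCTD_IT (adjusted p = 0.803), with overlapping groups. The departure of MIX_IT from the sum of its drugs was 0.60 ± 0.26 for Gpnmb (95% confidence interval 0.05 to 1.14, adjusted p = 0.420), the smallest p of the 9, and 0 of 9 passed against 0.0401% of all genes, with 1 of 9 at an unadjusted p below 0.05 against 11.3%. As Xist was 0 in MIX_IT, host sex and treatment cannot be told apart in these values of Gpnmb. Dct in NCTD_IT and PTX_IT differed by -0.30 ± 0.20 (adjusted p = 0.999).

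Whether a drug acted differently by the 2 routes was tested as the IT change minus the IP change. None of the 9 genes passed for NCTD, PTX or MIX (0% of all 13395 genes in each), and 0 of 9 had an unadjusted p below 0.05, against 10.8%, 5.23% and 7.44% of all genes. Gpnmb had the smallest p for NCTD, with a difference of -0.50 ± 0.28 (95% confidence interval -1.07 to 0.08, adjusted p = 0.525). Between the controls, CONTROL_IT vs. CONTROL_IP, Mlana differed by -0.42 ± 0.24 (adjusted p = 0.956), and 0 of 9 genes passed (0% of all genes), also without adjustment (4.84%). DESeq2 called 0 pigment genes in these comparisons of drugs, routes and controls. NCTD_IT had the lowest group mean of all 8 groups for Tyrp1, Dct, Pmel, Mlana, Slc45a2, Gpr143 and Gpnmb, and the highest for Tyr and Slc24a5. These orders are descriptions, since the ranges of neighbouring groups overlapped in 7 of 7 steps for each of these genes except Mlana (6) and Gpnmb (5). The highest group mean exceeded the lowest by between 1.30 times (Slc45a2) and 1.82 times (Gpr143) over the 9 genes.

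Mitf (ENSMUSG00000035158, chromosome 6, 97784013 to 97998310) encodes the factor that drives the pigment genes. In CONTROL_IT it was at 752, 697, 814 and 1023 CPM, in PTX_IT at 706, 560.4 and 526 CPM, in NCTD_IT at 429, 339.5, 596 and 441 CPM, and in MIX_IT at 330.1, 381, 339 and 361 CPM. All NCTD_IT and MIX_IT tumors were below all controls, as was the case for 8.95% and 4.98% of all genes. By the test it fell in NCTD_IT, by 0.86 ± 0.18 on the log2 scale (adjusted p = 0.0363). In MIX_IT the estimate was larger, -1.22 ± 0.18, and its adjusted p of 0.0603 was the smallest of any gene in that comparison. It passed there in 5 of 7 other settings, DESeq2 among them (adjusted p = 5.65e-09), and in 0 of 8 fits that left out a tumor. In PTX_IT it was -0.46 ± 0.20 (adjusted p = 0.785), and by the IP route -0.70 ± 0.26, -0.61 ± 0.25 and -0.04 ± 0.25 for NCTD_IP, PTX_IP and MIX_IP (adjusted p = 0.999, 0.906 and 0.999). Without CONTROL_IP replicate 1 these IP values were -0.31, -0.22 and 0.35. Without CONTROL_IP replicate 2, the only IP tumor with Xist, they were -1.004, -0.92 and -0.35. The call in NCTD_IT held in 2 of 8 fits that left out a tumor (adjusted p between 0.0290 and 0.145). It was lost with Xist as a covariate (adjusted p = 0.827), a fit that cannot separate host sex from treatment in this comparison.
MIX_IT had the lowest group mean of Mitf. Its levels of Gpnmb and Slc45a2 overlapped those of the controls. In Dct its tumor at 13368 CPM was inside the control range, and those at 12028, 11104 and 7368 CPM were below every control.

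Of 18 listed regulators of the pigment genes, Mitf included, 17 were in the table used here and 16 were tested. In NCTD_IT vs. CONTROL_IT 1 rose and 1, Mitf, fell by the adjusted p, which 1.37% of all genes passed. In the other 5 comparisons with controls 0 passed by edgeR (0% of all genes in each), although DESeq2 called Mitf and Mc1r in MIX_IT, among 230 genes. The gene that rose was Irf4 (ENSMUSG00000021356, chromosome 13, 30933209 to 30950959), a factor that acts with MITF on Tyr in melanocytes and is also used by lymphocytes. It went from 3.35, 3.07, 6.05 and 4.53 CPM in CONTROL_IT to 13.7, 12.3, 12.1 and 18.1 CPM in NCTD_IT, with a log2 change of 1.72 ± 0.33 (adjusted p = 0.0280). This call was kept in 3 of 8 fits that left out a tumor. It was lost with Xist as a covariate, where host sex and treatment cannot be separated. In PTX_IT and MIX_IT the log2 fold changes of Irf4 vs. CONTROL_IT were 1.30 ± 0.35 (adjusted p = 0.758) and 1.14 ± 0.33 (adjusted p = 0.185). CONTROL_IT, at 4.25 CPM, had the lowest mean of Irf4 of the 8 groups, and the means of the IP groups lay between 6.63 and 10.0 CPM. Mc1r, the melanocortin receptor upstream of cyclic AMP and Mitf, was at 486 ± 43.0 CPM in CONTROL_IT, 729.7 ± 102 in NCTD_IT and 756 ± 154 in MIX_IT. Its log2 fold changes were 0.59 ± 0.17 (adjusted p = 0.0701) in NCTD_IT and 0.64 ± 0.17 (adjusted p = 0.165) in MIX_IT. In NCTD_IT Mc1r passed in 3 of 7 other settings. Sox10, which activates Mitf, had a log2 fold change of -0.39 ± 0.20 in NCTD_IT (adjusted p = 0.272) and -0.15 ± 0.20 in MIX_IT (adjusted p = 0.792).

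**Figure D4:**
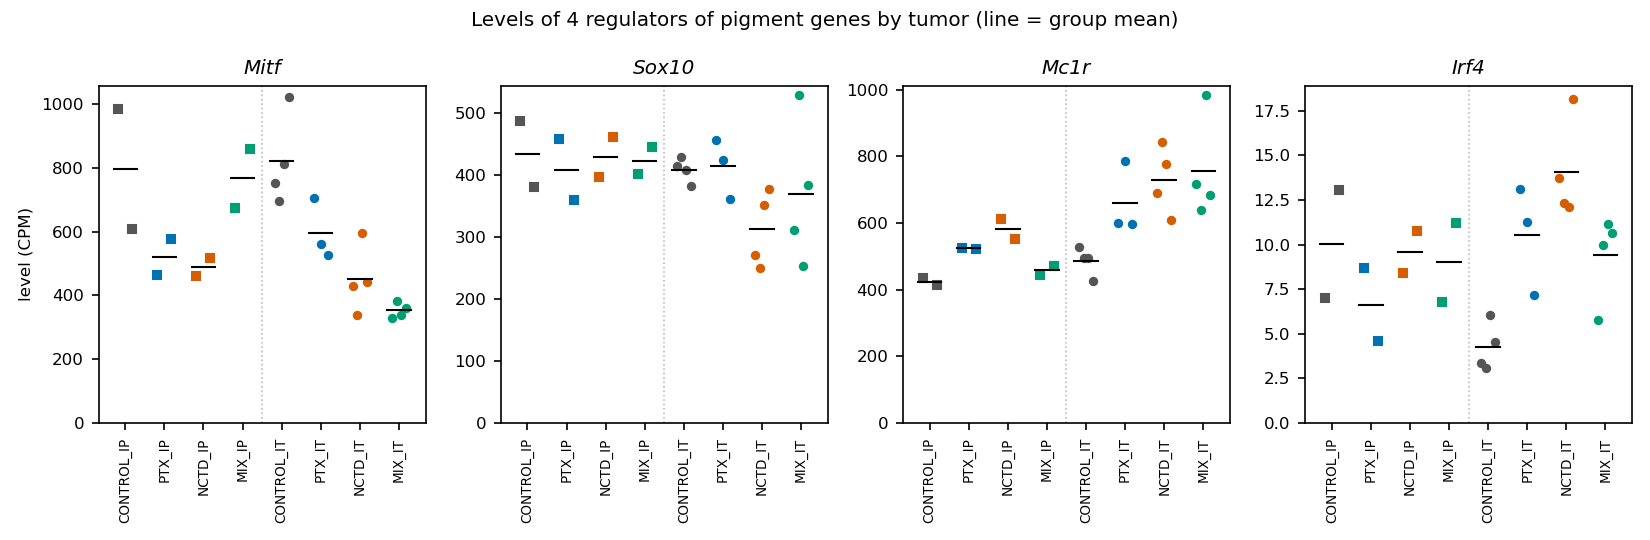
Levels of Mitf, Sox10, Mc1r and Irf4 (CPM, vertical axes from 0) in each tumor by group, with squares for IP tumors, dots for IT tumors and lines for group means. The group mean of MIX_IT is lowest for Mitf, with its tumors between 330.1 and 381 CPM, and that of NCTD_IT highest for Irf4, with its tumors between 12.1 and 18.1 CPM.

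Genes that build and move melanosomes were read from 2 further lists. Tested were 30 genes of melanosome biogenesis (the BLOC and HPS complexes, adaptors and related proteins) and 10 of melanosome transport (such as the motor, Rab and linker genes). Of these, 0 passed in any of the 6 comparisons with controls, against 1.37% of all genes in NCTD_IT and 0% in the other 5. In NCTD_IT the biogenesis list held 3 higher and 4 lower genes at an unadjusted p below 0.05, where 21.6% of all genes stood in either direction, with a median log2 fold change of -0.13, and the transport list 0 higher and 1 lower with a median of -0.12. DESeq2 called 3 of these genes in NCTD_IT (Bloc1s4, Bloc1s5 and Rab1a, named after their values were seen), among 1380 genes called there. It called 0 of them in the other 5 comparisons. The medians in MIX_IT were -0.01 and -0.05.

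The summed level of 10 fibroblast markers was 118 to 395 CPM in CONTROL_IT, 279 to 851 CPM in PTX_IT, 427 to 1773 CPM in NCTD_IT and 530.4 to 8862 CPM in MIX_IT, with 0 markers absent from any of these groups. By gene, 0 of 8 tested fibroblast markers passed in NCTD_IT (1.37% of all genes) and in MIX_IT (0%) by edgeR. In NCTD_IT 7 of the 8 had an unadjusted p below 0.05, against 21.6% of all genes. DESeq2 called 6 in NCTD_IT and 6 in MIX_IT, all higher, among 1380 and 230 genes called. By the adjusted p, which 1.37% of all genes passed in NCTD_IT, 1 of 6 tested endothelial markers rose there. The summed level of 8 endothelial markers went from 46.2 to 73.8 CPM in CONTROL_IT to 89.5 to 173 CPM in NCTD_IT. By the same measure 2 of 4 tested neutrophil markers rose, with sums of 27.5, 1094, 47.7 and 18.9 CPM in NCTD_IT against at most 11.2 CPM in CONTROL_IT. The upper end came from 1 tumor, NCTD_IT replicate 18. The MIX_IT tumor with 8862 CPM of fibroblast markers, labelled replicate 23, was the lowest of the 15 IT tumors in 5 of the 9 tested pigment genes. Without it the log2 fold changes in MIX_IT were -0.25 for Dct, -0.06 for Pmel, -0.04 for Slc45a2 and 0.12 for Gpnmb.

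Across the 15 IT tumors the log2 level of Dct ran against the log2 sum of fibroblast markers (Pearson's r = -0.86, permutation p = 9.0e-05, adjusted over 27 relations p = 0.00243). Spearman's rho was -0.725 (permutation p = 0.00326, adjusted p = 0.0880), and r was -0.62 without the 2 tumors farthest from the median of the sum and -0.82 after the group means were removed. Among the 8 IP tumors r had the opposite sign, 0.69, so the relation did not hold in both batches. None of the other 26 relations, of the 9 genes with Mitf, the macrophage sum or the fibroblast sum, passed by Pearson's r. For Tyr the correlation with the fibroblast sum was 0.11 (adjusted p = 0.741), and for Dct with Mitf it was 0.56 (adjusted p = 0.118) and -0.0065 after the group means were removed. The part of fibroblast or other host RNA in the pigment gene differences was not tested.

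**Figure D5:**
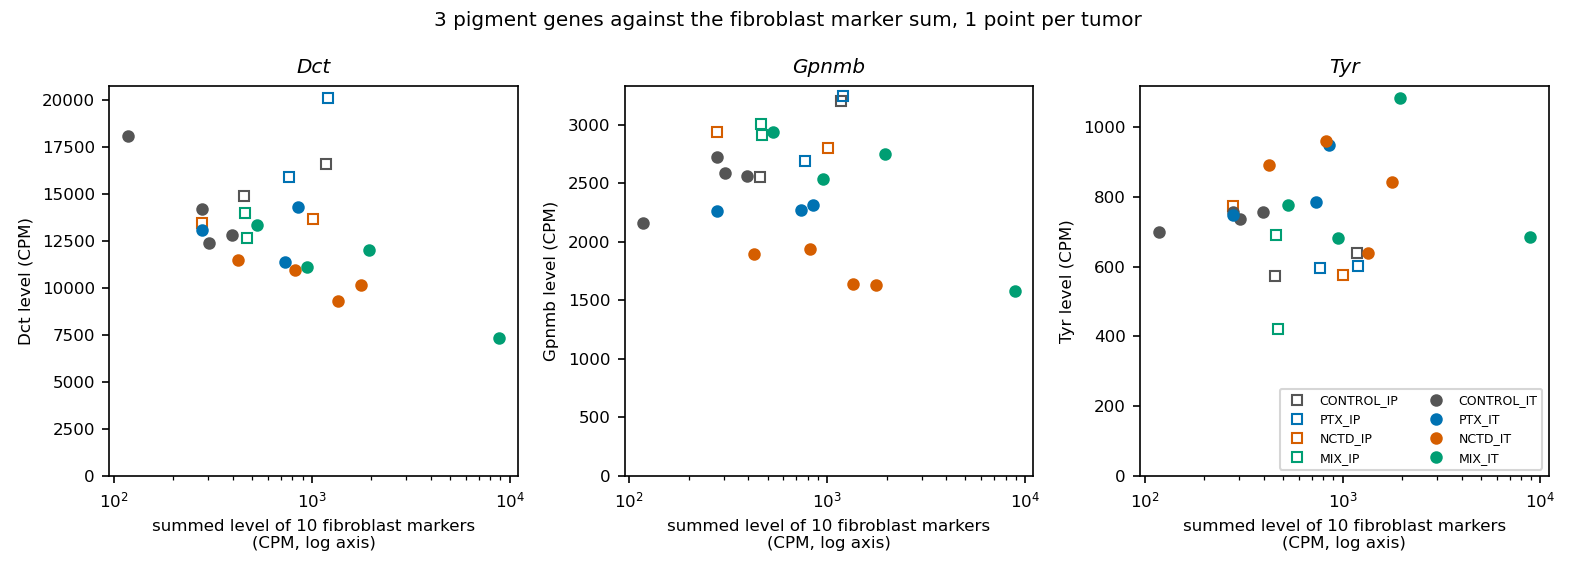
Levels of Dct, Gpnmb and Tyr (CPM, vertical axes from 0) against the summed level of 10 fibroblast markers (CPM, log axis), with 1 point per tumor, filled dots for IT and open squares for IP. Dct is lower in IT tumors with more fibroblast marker RNA (r = -0.86) but not in IP tumors (r = 0.69), and the MIX_IT tumor at 8862 CPM lies far to the right.

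The pigment genes varied together among tumors. Over the 15 IT tumors the 36 pairs of the 9 tested genes all had a positive correlation of their log2 levels, with a median r of 0.60 and a range from 0.06 to 0.86. Tyr had the lowest median r to the other 8 genes, 0.22, and Slc45a2 the highest, 0.77. After the group means were removed the median for Tyr was 0.46, and that for Gpr143, the next lowest, 0.53. Without MIX_IT replicate 23, left out after its levels were seen, the median was 0.50 and 34 of 36 pairs were positive. In the 8 IP tumors the median was 0.36, with 31 of 36 pairs positive. There the median for Tyr, 0.23, was above those for Pmel (0.17) and Gpr143 (0.11). The genes of a tumor share its library and its cell makeup, so these values describe the tumors and carry no test.

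By the same measure, the protein-coding genes most like the mean standardized log2 level of the 10 pigment genes over the 15 IT tumors, of 13311 ranked, were Ndufa1 (r = 0.96), Fam174b (0.93), Ccdc13 (0.92), Gpr137b (0.90) and Tbc1d9b (0.90). In the 8 IP tumors, which did not enter the choice, their r was 0.50, 0.23, 0.47, 0.41 and 0.46. The likeness was thus weaker where it had not been selected.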

How the data were processed

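The authors extracted RNA from whole tumors, made 3′ messenger RNA libraries, checked and trimmed the reads with FastQC and Trimmomatic, aligned them to GRCm39 with STAR 2.7.11b (names from the submitters' processing notes) and deposited unnormalized read counts per gene. Strand use in counting and the handling of multiply aligned reads are not given in the sources used here, so overlapping genes can share reads. The 23 tumors were grouped by their labels, and p-values measure the spread between these tumors.

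The counts were tested with edgeR 4.0.16 (limma 3.58.1, R 4.3.3) by two-sided quasi-likelihood tests after filterByExpr (minimum count 10, minimum total 15) and TMM. The 4 groups of a route shared a model, and all 23 tumors entered contrasts across routes. P-values were adjusted by Benjamini-Hochberg over all genes tested, at 0.05. The SE is the log2 fold change divided by the square root of F. DESeq2 1.42.0, which the study's methods name, was an alternative, as were its size factors, no filter, protein-coding genes alone, the 2 groups alone, all 23 tumors, Xist as a covariate and each tumor left out. Correlations used log2 CPM with a prior count of 2 and 100000 two-sided permutations of the tumors. The model was tested on simulated data.

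The pigment genes and lists were chosen with earlier results of these data known. All 10 are named, with Mitf, Sox10, Mc1r, list genes that passed against a control (at most 4 per list), and the 5 genes of most similar pattern. Of marker lists only sums and counts are given. Lists of T and NK cell, keratinocyte, muscle and red cell markers were summed too. Chi-square per degree of freedom between tumors of a group was 8.09 to 64.6, so none was a repeated library. The floor of 3 counts was 0.449 to 1.04 CPM per tumor and covers counting error only.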

Additional observations from a re-analysis of the deposited data

Results flagged for a closer look

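Among 30 sets of values checked (the pigment genes in groups of 4 tumors), 1 held a tumor far from the others: Tyrp1 in NCTD_IT, where the highest tumor, replicate 20, was at 3415 CPM and the other 3 lay between 2229 and 2382 CPM. The gap made up 0.871 of the range of the group. Chance alone marks about 1 set in 20. The same tumor was also the highest of NCTD_IT in Pmel, at 7428 CPM, in Mlana, at 3085 CPM, and in Dct, Slc45a2, Oca2 and Gpr143. It was not the highest in Tyr, Gpnmb and Slc24a5. Its marker sums were the lowest of that group for fibroblasts, 427 CPM, and neutrophils, 18.9 CPM. They were the highest of the group for macrophages, 1877 CPM, and for T and NK cells, 325 CPM.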

How the results depend on the processing

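The number of pigment genes past the threshold was 0 in all 17 comparisons and stayed at 0 under every alternative that was run except DESeq2 in NCTD_IT vs. CONTROL_IT, which called 1 gene, Gpnmb. Leaving out each tumor in turn gave 0 to 0 genes. A count of 0 at this depth and number of tumors does not show that the genes did not differ. A change of sign was counted as a reversal only where the value was called, and none was. Uncalled estimates changed sign in 4 of 135 values in NCTD_IT, 4 of 126 in PTX_IT and 7 of 135 in MIX_IT against CONTROL_IT, and in 14 of 99 in NCTD_IP, 10 of 99 in PTX_IP and 5 of 99 in MIX_IP against CONTROL_IP, and the largest move, 1.07 on the log2 scale, came with Xist as a covariate, for Oca2 in NCTD_IT (-0.30 to -1.37). That setting also moved Pmel from -0.31 to -0.99 and Mlana from -0.05 to -0.68 in NCTD_IT, with adjusted p of 0.834 and 0.842. As Xist did not overlap between NCTD_IT and CONTROL_IT, the setting cannot separate host sex from treatment there. Without each tumor in turn, the NCTD_IT estimates ranged from -0.51 to -0.33 for Dct, -0.57 to -0.45 for Gpnmb, -0.40 to -0.34 for Slc45a2, -0.53 to -0.31 for Tyrp1, 0.11 to 0.29 for Tyr, -0.51 to -0.17 for Pmel, -0.47 to -0.07 for Oca2, -0.66 to -0.29 for Gpr143 and, with a change of sign, -0.24 to 0.08 for Mlana. No paired analysis was possible because no replicate number occurs in more than 1 group. The calculations without MIX_IT replicate 23 (the pairs of pigment genes, and Dct with the fibroblast sum, where r went from -0.86 to -0.76) were chosen after seeing the data.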

Other observations

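Markers of other host cells had these summed levels in CONTROL_IT and NCTD_IT. Hemoglobin and other red cell genes (6 genes) lay between 1238 and 6944 CPM in CONTROL_IT and between 258 and 1360 CPM in NCTD_IT, the 10 markers of T and NK cells between 1.80 and 149 CPM and between 30.1 and 325 CPM, the 10 muscle genes between 7.21 and 47.3 CPM and between 10.8 and 322 CPM (at most 31.2 CPM without NCTD_IT replicate 18), and the 10 keratinocyte genes between 1.54 and 8.33 CPM and between 5.53 and 28.2 CPM. By edgeR, 0 tested genes of these lists passed in NCTD_IT vs. CONTROL_IT (1.37% of all genes). At an unadjusted p below 0.05 there were 3 of 4 red cell genes as lower, and 2 of 9 T and NK cell, 1 of 4 muscle and 0 of 2 keratinocyte genes as higher. Of all genes, 21.6% stood there in either direction and 10.0% as lower. DESeq2 called 1 red cell gene lower and 2 T and NK cell genes higher, among 1380 genes called. Their part in the pigment gene values was not tested.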
